A study of Mus musculus with 33 samples.

Results

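The genes described here are 45 mouse genes of DNA repair outside base excision repair, covering double-strand break repair, interstrand crosslink repair, mismatch repair and nucleotide excision repair together with the checkpoint genes that answer such damage. They were taken from a fixed list by gene symbol, and each symbol matched a single row among the 37991 genes of the count tables. The list falls into 8 roles, namely homologous recombination (11 genes), the Fanconi anaemia pathway (8), the MRN complex (3), checkpoint kinases and their partners (6), end joining (6), mismatch repair (2), nucleotide excision repair (5) and the chromatin response at breaks (4).

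RNA was sequenced from E14TG2a cells, a mouse embryonic stem cell (mESC) line, at 3 stages: undifferentiated mESCs, embryoid bodies (EBs) harvested on day 8, and EBs of the same day treated with 5 µM retinoic acid (RA), a signal that directs EBs towards neural fates. All lines, controls included, had been transfected with a Cas9 plasmid and a puromycin resistance plasmid, selected with puromycin and picked as single colonies. The wild-type controls received the Cas9 plasmid without guide RNA and comprised clones #1, #4 and #7. Neil1 knockout comprised clones #7, #9 and #11, and Neil2 knockout clones #1, #11 and #14. Apex1 knockout was 1 clone, #46, processed in 2 technical duplicates, so that tests against it do not cover differences between clones. Every clone was carried through all 3 stages, which gave 33 libraries.

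NEIL1 and NEIL2 are DNA glycosylases that remove oxidised bases, and APEX1 cuts the abasic sites that glycosylases leave, so all are part of base excision repair. The genes described here serve other routes. Homologous recombination copies an intact sister sequence after a break has been resected, end joining religates broken ends through the Ku proteins and DNA-PK, the Fanconi anaemia proteins unhook crosslinked strands, mismatch repair corrects replication errors, and nucleotide excision repair cuts out bulky lesions. Many of these genes are transcribed mainly in proliferating cells, as the recombination and crosslink routes act in S and G2 phase, and embryonic stem cells are known to express them at high levels.

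The guide RNAs define the alleles, and the pairs used for each gene are shown with the adjacent PAM, the motif that Cas9 requires, in capitals.
Neil1 guide 1: gggaggaacaggtttgtaagTGG
Neil1 guide 2: gatgtcaggatccttccagcTGG
Neil2 guide 1: gctgtgtggttaaggctgagGGG
Neil2 guide 2: gctgtgaagaatgtctgaaaAGG
Apex1 guide 1: gtgcccgctaaaagtctcttaTGG
Apex1 guide 2: aagatccggtccaaggctctTGG
In NCBIM37 the Neil1 guides lie on the minus strand at chr9:56995167-56995186 and chr9:56994583-56994602, and the Neil2 guides on the minus strand at chr14:63810934-63810953 and chr14:63810347-63810366. The Apex1 guides lie on the plus strand at chr14:51546000-51546020 and chr14:51546586-51546605. The deletion between the cut sites leaves 83.5% of the annotated exon bases of Neil1, 92% of those of Neil2 and 66% of those of Apex1, so counts over the whole gene cannot show whether the deletion is present. In the libraries labelled Neil1, Neil1 stood at 31.5, 2.48 and 7.37 CPM in mESCs (clones #7, #9 and #11), against 9.85, 9.61 and 7.62 CPM in the controls, and it was lower in EBs (log2 fold change -1.18, SE 0.45, FDR 0.0869) and in EBs + RA (-1.18, SE 0.30, FDR 0.018). Neil2 was not called in the libraries labelled Neil2 at any stage (log2 fold change -0.69, 0.43 and 0.45 in mESCs, EBs and EBs + RA, FDR 0.397, 0.50 and 0.154). Apex1 was higher, not lower, in the libraries labelled Apex1, at 77.2 and 73.1 CPM in mESCs against 7.76 to 17.8 CPM in the controls (log2 fold change 2.71, SE 0.34, FDR 0.0189). The counts therefore do not check the genotypes. The lines had been picked by genotyping PCR across the deletion, and the study also measured NEIL1 and APEX1 protein and RNA of the targeted Neil2 exon, which are not analysed here. Groups below follow the sample labels.

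The libraries held 21523742 to 48350904 counts (median 26720028), and the lowest count of any of the 45 genes was 136 to 334 reads per library. Levels are given as CPM, the count scaled to library size after trimmed-mean (TMM) normalisation, and a gene was called raised or lowered where the edgeR quasi-likelihood test gave a false discovery rate (FDR, Benjamini-Hochberg over all genes tested) below 0.1 with an absolute log2 fold change above 0.5. All 45 genes passed the filter on low counts in every comparison. Some libraries stood apart. The mESC library of control clone #7 (replicate 3) differed from the other 2 controls for several of the genes described, and Neil1 clone #11 (replicate 3) had lower levels over chromosome 9, which holds 7 of the 45 genes, at all stages (median log2 difference from the controls -0.25 in mESCs, -0.28 in EBs and -0.32 in EBs + RA). The Apex1-labelled libraries had higher levels over chromosome 12, which holds Fancm and Xrcc3, with medians of 0.17 to 0.32. The mESC library of Neil1 clone #11 had also lost most X-linked signal (median -4.60), but none of the 45 genes is X-linked. In bulk RNA, fewer cells of a type and less RNA per cell cannot be told apart. Reads over overlapping genes were discarded by the counting and could depress Ercc2, Rnf8 and Atrip, of whose exon bases 42.7%, 41.6% and 25.8% overlap another gene.

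In control mESCs the levels per kb of exon spanned a wide range. H2afx, the histone variant that is phosphorylated around breaks, was highest at 243 CPM per kb, followed by Msh6, which acts in the recognition of base mismatches, at 169 CPM per kb. Xrcc5, which encodes the Ku80 end-binding protein, stood at 67.8 CPM per kb, the damage kinase gene Chek2 at 39.4 and Topbp1, an activator of the ATR kinase, at 38.7. At the other end, Fancc, a subunit of the Fanconi core complex, stood at 1.46 CPM per kb and Xrcc4, the scaffold of the end-joining ligase, at 1.64 CPM per kb. Chek2 and Topbp1, neighbours in this order, did not differ beyond their spread.

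Promoters were searched for motifs of E2F factors, which drive S-phase genes. In the RefSeq table of GRCm38.p6 promoters (250 bases before to 50 after a start), 37 of the 45 genes had an entry. The letters TTTCCCGC, on either strand, occurred in the promoters of 8 of these 37 genes (21.6%), against 1.24% of all 27025 genes in the table. TTTCGCGC occurred in 2 of 37 (5.41%, against 0.374%) and TTTGGCGC in 0 of 37 (against 0.585%). The general promoter motifs GGGCGG and CCAAT occurred in 73% and 59.5% of the 37, against 38.2% and 41.1% of all genes. A gene with several entries counted once if any entry matched, the reverse complement of TTTCCCGC can share its leading bases with GGGCGG. The matches that lie wholly upstream of the start are shown. Of these 7 genes, 4 (Brca2, Bard1, Chek2 and Xrcc6) fell with RA as described below. That compares with 20 of all 45 genes (44.4%) and 20.7% of all genes tested. Whether motif and fall go together was not tested. Each line gives 60 bases, with the E2F motif in capitals.
Brca2: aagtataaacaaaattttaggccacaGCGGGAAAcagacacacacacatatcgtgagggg
Bard1: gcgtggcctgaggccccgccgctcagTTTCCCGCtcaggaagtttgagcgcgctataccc
Chek2: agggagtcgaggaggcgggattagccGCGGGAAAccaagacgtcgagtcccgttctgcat
Xrcc6: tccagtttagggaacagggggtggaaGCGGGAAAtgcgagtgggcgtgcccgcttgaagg
Mdc1: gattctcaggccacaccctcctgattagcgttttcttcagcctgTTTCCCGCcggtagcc
Fancg: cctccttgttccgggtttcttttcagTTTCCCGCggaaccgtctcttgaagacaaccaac
Topbp1: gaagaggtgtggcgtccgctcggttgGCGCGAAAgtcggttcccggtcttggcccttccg
In GRCm38.p6 these are chr5:150522427-150522486 (plus strand), chr1:71103148-71103207 (minus), chr5:110839805-110839864 (plus), chr15:82016297-82016356 (plus), chr17:35841438-35841497 (plus), chr4:43010320-43010379 (minus) and chr9:103305172-103305231 (plus). In Rad51c and Msh6 the motif lay across or after the start. A match is a run of letters and not a shown binding site.

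The first question was how these genes behave as control cells leave pluripotency. From mESCs to EBs, 12 of the 45 genes fell and none rose, against 20.2% and 18.5% of all genes tested. The median log2 fold change of the 45 was -0.21, against -0.02 over all genes. In the same clones, 8 of the 10 pluripotency markers (Pou5f1, Nanog and others) and 3 of 18 S-phase genes (the Mcm helicase genes and others) also fell, 4 of 5 neural markers fell and 1 rose, 6 of 7 mesoderm markers rose and 1 fell, and all 7 endoderm markers rose. The part of these shifts in the values below was not tested. Xrcc5 stood at 166, 166 and 188 CPM in the mESCs of clones #1, #4 and #7 and at 93.8, 91.7 and 95.8 CPM in their EBs. The groups were far apart, with a log2 fold change of -0.91 (SE 0.11, FDR 0.000264). Fanci, a subunit of the complex that is ubiquitinated at crosslinks, stood at 67.0, 61.2 and 95.5 CPM in mESCs and 38.0, 39.7 and 45.9 CPM in EBs. All EB libraries lay below all mESC libraries (-0.88, SE 0.17, FDR 0.00396). Rad51c, a gene of homologous recombination, fell from 32.5, 35.5 and 30.7 CPM to 16.7, 16.3 and 24.7 CPM (-0.80, SE 0.18, FDR 0.00637). Msh6 fell from 646, 641 and 872 CPM to 441, 412 and 429 CPM (-0.77, SE 0.15, FDR 0.00289). The genes that fell came from 6 of the 8 roles, with 2 of 11 recombination genes, 3 of 8 Fanconi genes, 1 of 6 checkpoint genes, 3 of 6 end-joining genes, 1 of 2 mismatch genes and 2 of 4 chromatin response genes. No gene of the MRN complex or of nucleotide excision repair was called. The other genes called were Brca2, Fancd2, Brip1, Atr, Prkdc, Xrcc6, H2afx and Mdc1, at -0.53 to -0.76, and for H2afx the groups overlapped.

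RA treatment was followed by a second and wider fall. Between control EBs and EBs + RA, 20 of the 45 genes fell (44.4%), against 20.7% of all genes tested, and 3 rose (6.67%), against 23.3%. The median log2 fold change of the 45 was -0.43, against 0.01 over all genes. RA treatment lowered all 10 pluripotency markers and 6 of 8 mesoderm markers (1 rose), raised all 8 neural markers measured, and left 1 of 7 endoderm markers raised and 2 lowered, and 7 of the 18 S-phase genes and 5 of 15 mitotic genes fell with it. The summed S-phase level went from 4061.8 to 4561.3 CPM in EBs to 2649.9 to 3469.0 CPM in EBs + RA, while the sum of the 45 genes went from 2704.7 to 2827.6 CPM to 1872.3 to 2068.8 CPM. Both sums moved together, and the part of the S-phase shift in the fall of the repair genes was not tested.

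Chek2, the checkpoint kinase downstream of ATM, showed the widest fall, from 62.7, 57.6 and 72.0 CPM in EBs to 22.8, 22.1 and 25.1 CPM in EBs + RA (log2 fold change -1.47, SE 0.12, FDR 2.55e-05). The values of each group were tight and far apart. Fanci fell from 38.0, 39.7 and 45.9 CPM to 17.0, 17.5 and 18.7 CPM (-1.23, SE 0.12, FDR 6.62e-05), and its partner Fancd2 fell by 0.85 on the log2 scale (SE 0.11). Msh6 fell from 441, 412 and 429 CPM to 211, 200 and 206 CPM (-1.07, SE 0.08, FDR 2.05e-05). Atm, the apical kinase at double-strand breaks, fell from 36.1, 28.7 and 28.2 CPM to 17.8, 16.4 and 14.0 CPM (-0.96, SE 0.15, FDR 0.000818). None of these groups overlapped. By role, 8 of 11 recombination genes fell (Brca1, Brca2, Rad51c, Rad54l, Palb2, Bard1, Blm and Exo1, from -0.50 to -0.84), as did 4 of 8 Fanconi genes (Fanca, Fancd2, Fanci and the translocase gene Fancm), 2 of 3 MRN genes (Mre11a at -0.73 and Rad50 at -0.95, but not Nbn at 0.28), 3 of 6 checkpoint genes (Atm, Atr and Chek2), 2 of 6 end-joining genes (Prkdc and Xrcc6) and 1 of 2 mismatch genes. Among genes with a promoter entry, 6 of 9 with an E2F motif and 10 of 28 without one fell, a difference that was not tested.

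The 3 genes that rose with RA belong to the remaining roles. Trp53bp1, whose product 53BP1 shields broken ends from resection, stood at 74.4, 73.2 and 65.9 CPM in control EBs and 125, 127 and 97.9 CPM in EBs + RA (log2 fold change 0.70, SE 0.12, FDR 0.00121). Rnf8, the ubiquitin ligase that acts before 53BP1 at a break, rose from 33.2, 39.4 and 36.0 CPM to 53.1, 56.0 and 52.5 CPM (0.56, SE 0.10, FDR 0.00189). Xpa, which verifies lesions in nucleotide excision repair, rose from 10.1 CPM at the lowest and 11.5 CPM at the highest to 15.1, 18.5 and 16.8 CPM (0.65, SE 0.15, FDR 0.00602). In all 3 genes every EBs + RA library lay above every EB library. The other 4 nucleotide excision repair genes were not called, and the role as a whole had a median of 0.06.

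**Figure D1:**
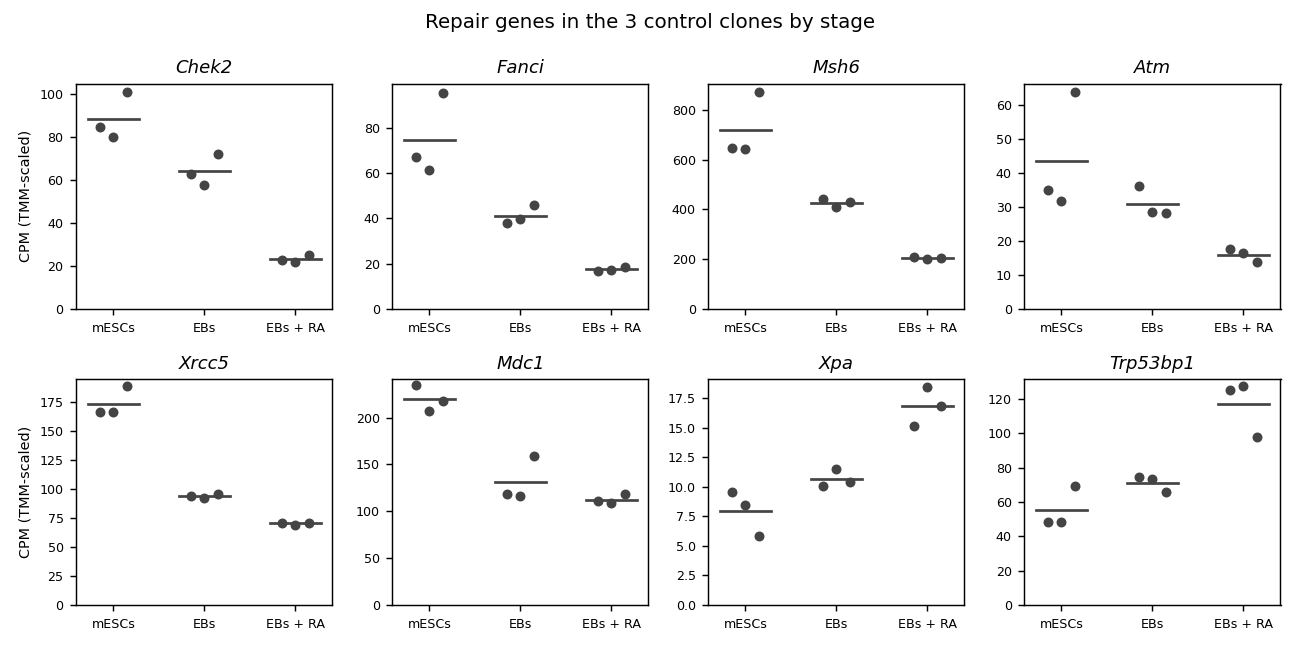
Levels of 8 repair genes in the control clones. The vertical axis is CPM after TMM scaling, starting at 0, the horizontal axis is the stage, points are clones #1, #4 and #7 from left to right and lines are means. Chek2, Fanci, Msh6 and Atm dropped at RA treatment, Xrcc5 dropped mostly from mESCs to EBs, and Xpa and Trp53bp1 rose with RA.

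The second question was whether loss of a base excision repair gene changes these levels. In mESCs few genes moved. In the libraries labelled Neil1, 1 of the 45 genes was lowered and none raised, against 0.784% lowered and 1.03% raised of all genes tested. That gene was Rad51c, at 21.8, 17.1 and 20.8 CPM in Neil1 clones #7, #9 and #11 against 32.5, 35.5 and 30.7 CPM in the controls (log2 fold change -0.74, SE 0.14, FDR 0.0839). All Neil1 libraries lay below all controls. The call was lost without any 1 of 5 of the 6 libraries, control clone #7 being the exception, and with a replicate block (FDR 0.233). Those fits called few genes of any kind, 0 to 198 without a library and 0 with the block. With all libraries 161 genes were raised and 122 lowered. The Rad51c value stayed at -0.82 to -0.64 with each library left out. No gene was called in the libraries labelled Neil2, against 0.429% lowered and 1.40% raised of all genes. DESeq2 called 1 of the 45, Trp53bp1 (edgeR log2 fold change -0.61, FDR 0.143), against 811 of all 15615 genes tested. In the edgeR test 4 of the 45 had an unadjusted p under 0.05, and the share of all genes under that limit was not counted.

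The Apex1-labelled mESC libraries had 2 genes raised and 2 lowered, against 7.87% and 9.07% of all genes. Fancm, which remodels stalled forks and anchors the Fanconi core complex, stood at 126 and 114 CPM in the duplicates against 45.5, 46.7 and 81.8 CPM in control clones #1, #4 and #7 (log2 fold change 1.02, SE 0.26, FDR 0.0557). H2afx stood at 157 and 201 CPM against 384, 396 and 209 CPM (-0.91, SE 0.29, FDR 0.0891). In both genes control clone #7 lay towards the Apex1 values. Rad51c was lowered, at 19.7 and 20.2 CPM (-0.75, SE 0.12, FDR 0.0277), and Xrcc2, another recombination gene, was raised, at 30.5 and 28.5 CPM against 18.1, 15.9 and 21.9 CPM (0.63, SE 0.16, FDR 0.0565). Without control clone #1 the Fancm, H2afx and Xrcc2 calls were lost, and without control clone #4 the Rad51c call was lost as well. Those fits called 804 of 15968 and 183 of 15964 genes tested. With 1 duplicate left out, the values were 0.95 and 1.09 for Fancm, -0.74 and -1.10 for H2afx, 0.59 and 0.68 for Xrcc2, and -0.73 and -0.77 for Rad51c. Without control clone #7, 12 of the 45 genes were called, 9 of them raised, against 6154 of all 16090 genes tested. With the duplicates summed, the Apex1 group held 1 library, too few to read a lack of calls as a result about these genes. Fancm sits on chromosome 12, where the whole chromosome was higher in these libraries by medians of 0.17 and 0.21, and its part in the Fancm value was not tested. In the same libraries 3 of 10 pluripotency markers were lowered (5943.1 to 6019.8 CPM in sum against 7015.9 to 8490.4 CPM), 3 of 7 mesoderm markers were raised and 3 of 18 S-phase genes were lowered, and their part was not tested either.

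**Figure D2:**
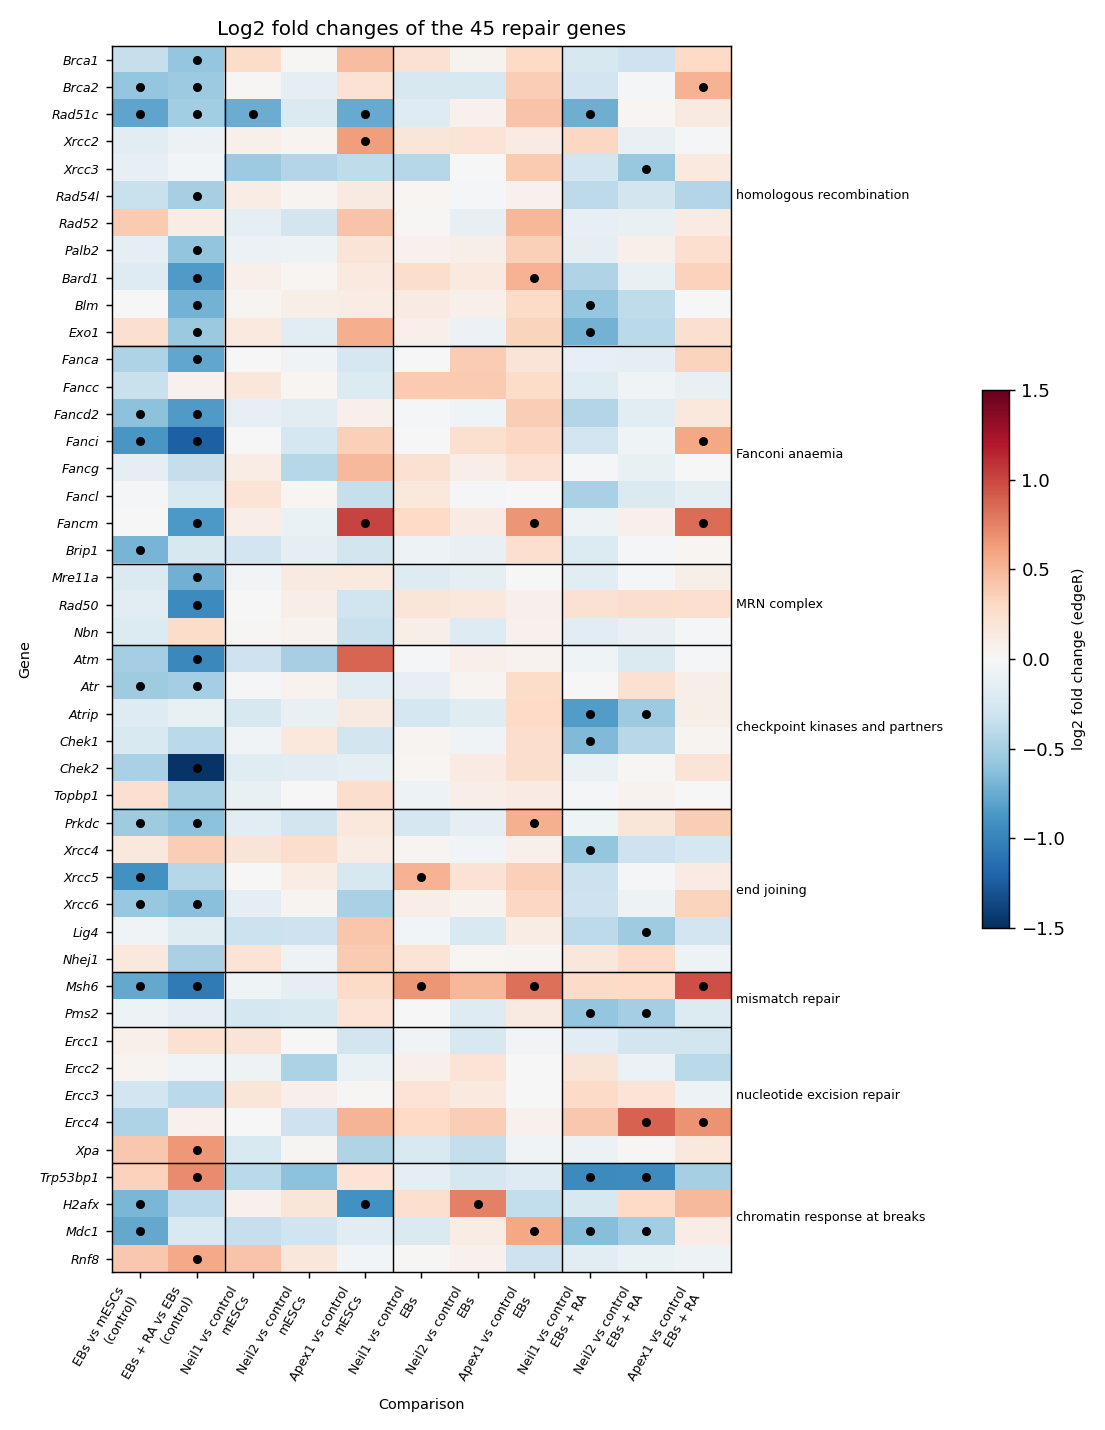
Log2 fold changes (colour, edgeR) of the 45 genes (rows, grouped by role) in the stage comparisons of the control clones and the 9 comparisons with control (columns). Black dots mark called genes. The RA column of the controls holds 23 dots, mostly blue, and the mESC columns for Neil1 and Neil2 hold 1 dot between them.

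In EBs the calls were few and all upward. Neil1-labelled EBs had 2 genes raised, against 10.4% of all genes raised and 13.1% lowered. Neil2-labelled EBs had 1, against 8.65% and 7.69%, and Apex1-labelled EBs had 5, against 11.9% and 13.9%. These shares are at or under those of all genes. Pluripotency markers were higher in the same libraries, with 9, 8 and 8 of 10 raised, and summed to 5809.5 to 7332.6 CPM in Neil1, 5406.9 to 7220.7 CPM in Neil2 and 7252.2 to 7289.8 CPM in Apex1 against 3642.0 to 4293.2 CPM in the controls. Mesoderm markers (T, Mesp1 and others) were lowered for 6 of 7 tested in each mutant, and summed to 41.7 to 58.5 CPM in Neil1, 43.4 to 56.2 CPM in Neil2 and 128 to 148 CPM in Apex1 against 370 to 481 CPM. Of 7 endoderm markers (Sox17, Foxa2 and others) 6 were lowered in Apex1 and none was called in Neil1 or Neil2. No S-phase gene was called in Neil1 or Neil2, and 1 of 18 was lowered in Apex1. The part of these markers in the changes of the repair genes was not tested.

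Msh6 was the clearest gene in EBs. It stood at 441, 412 and 429 CPM in control EBs, at 683, 680 and 666 CPM in Neil1 (log2 fold change 0.66, SE 0.07, FDR 9.29e-05) and at 713 and 805 CPM in Apex1 (0.83, SE 0.09, FDR 0.000104). Neither group overlapped the controls, and both calls held with every library left out in turn. Neil2 EBs held 461, 729 and 598 CPM in clones #1, #11 and #14, also above all controls but with a wider spread and not called (0.50). Xrcc5 stood at 125, 135 and 144 CPM in Neil1 EBs against 93.8, 91.7 and 95.8 CPM (0.52, SE 0.08, FDR 0.000962). Both genes are among those that fell most from mESCs to EBs in the controls, and Msh6 in Neil1 and Apex1 EBs lay near the control mESC level.

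H2afx was the gene called in Neil2 EBs, at 387, 287 and 366 CPM against 173, 255 and 194 CPM (log2 fold change 0.76, SE 0.18, FDR 0.0261). The groups did not overlap, but the call was lost without control clone #1 (replicate 1) or Neil2 clone #14 (replicate 3). In Apex1 EBs, Fancm stood at 94.4 and 93.6 CPM against 67.5, 60.7 and 49.2 CPM (0.66, SE 0.12, FDR 0.00243), with chromosome 12 higher by medians of 0.28 and 0.32. Mdc1, the adaptor that binds phosphorylated H2AX, stood at 197 and 196 CPM against 118, 117 and 159 CPM (0.58, SE 0.13, FDR 0.00853). Prkdc, the catalytic subunit of DNA-PK, was higher by 0.53 (SE 0.12, FDR 0.00644) at 59.8 and 64.7 CPM against 45.2, 36.6 and 47.0 CPM, and Bard1, the partner of BRCA1, by 0.52 (SE 0.09, FDR 0.00174). Without the fold limit 21 of the 45 genes were higher and 2 lower in Apex1 EBs at FDR below 0.1, against 40.0% of all genes in either direction. The median log2 fold change of the 45 in Apex1 EBs was 0.25, against 0.00 over all genes. In the same way 7 were called in Neil1 EBs (35.9% of all genes), 2 in Neil2 EBs (18.3%), 14 in Neil1 EBs + RA (47.3%), 8 in Neil2 EBs + RA (42.6%), 8 in Apex1 EBs + RA (28.6%), 6 in Apex1 mESCs (20.7%), 1 in Neil1 mESCs (1.82%) and 0 in Neil2 mESCs (1.84%). Among the control stage comparisons 18 were called from mESCs to EBs (48.8%) and 32 with RA (57.9%).

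**Figure D3:**
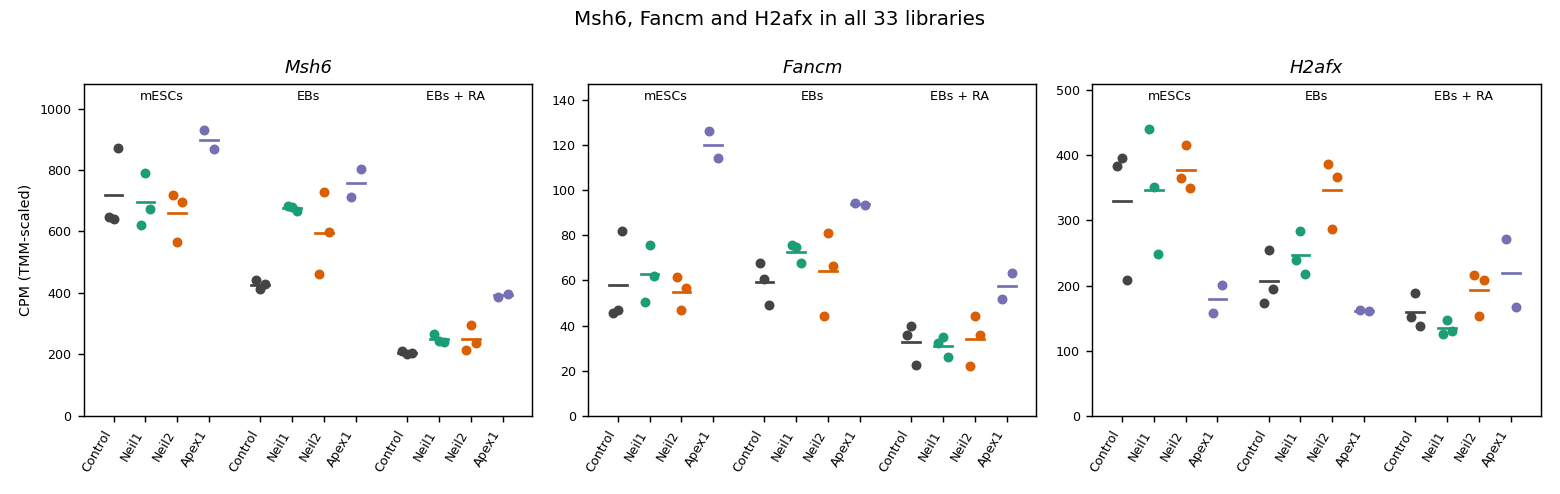
Msh6, Fancm and H2afx in all 33 libraries. The vertical axis is CPM after TMM scaling, starting at 0, points are libraries coloured by genotype and lines are group means. Msh6 of the Apex1-labelled libraries lay above the controls in EBs and EBs + RA, Fancm at every stage, and H2afx below them in mESCs.

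In EBs + RA most calls in the glycosylase mutants were downward, at a share close to that of all genes in Neil1 and under it in Neil2. Neil1-labelled libraries had 9 genes lowered and none raised, against 19.9% and 21.2% of all genes, so that the share lowered was 20% and no gene was raised. Neil2-labelled libraries had 6 lowered and 1 raised, against 16.6% and 18.3%. The median log2 fold change of the 45 was -0.19 in Neil1 and -0.10 in Neil2, against 0.00 over all genes in both. Those lowered in both were Trp53bp1, Mdc1, Atrip and Pms2, and both comparisons used the same controls.

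Trp53bp1 stood at 57.7, 66.6 and 54.6 CPM in Neil1 clones #7, #9 and #11 and at 52.9, 65.3 and 62.0 CPM in Neil2 clones #1, #11 and #14, against 125, 127 and 97.9 CPM in the controls. Neither mutant group overlapped the controls (log2 fold change -0.96, SE 0.15, FDR 0.00265 for Neil1, and -0.94, SE 0.14, FDR 0.00232 for Neil2). In both mutants the level with RA was close to that of their EBs without RA, 68.1, 54.0 and 72.2 CPM in Neil1 and 52.4, 60.2 and 64.5 CPM in Neil2. Both calls held with any library left out. Of the exon bases of Trp53bp1, 15% overlap another gene.

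Mdc1 was lower in both mutants with RA, at 76.5, 69.3 and 69.4 CPM in Neil1 and 91.9, 71.6 and 68.5 CPM in Neil2 against 110, 109 and 119 CPM (log2 fold change -0.64, SE 0.12, FDR 0.00508, and -0.52, SE 0.14, FDR 0.0227). Unlike Trp53bp1 it did not rise with RA in the controls (118, 117 and 159 CPM in EBs), and the Neil2 call was lost without control clone #7, Neil2 clone #11 or Neil2 clone #14. Atrip, which brings the ATR kinase to single-stranded DNA, stood at 10.2, 10.2 and 5.49 CPM in Neil1 and 8.63, 12.1 and 10.9 CPM in Neil2 against 15.0, 18.3 and 13.3 CPM (-0.84, SE 0.27, FDR 0.0432, and -0.54, SE 0.20, FDR 0.0678). Neither gene's mutant values reached the lowest control. Atrip lies on chromosome 9, and without Neil1 clone #11 its Neil1 value was -0.60 (FDR 0.046). Both Atrip calls were lost without control clone #1 or control clone #4, and the Neil2 call also without Neil2 clone #1 or Neil2 clone #14. Pms2, an endonuclease gene of mismatch repair, was lowered by 0.58 and 0.51 on the log2 scale (FDR 0.0469 and 0.0318). The call in Neil1 was lost without Neil1 clone #11, control clone #1 or control clone #4. In Neil2 it was lost without control clone #1, control clone #4, Neil2 clone #1 or Neil2 clone #14. DESeq2, RLE scaling and the fit with a replicate block did not call it in Neil2 either.

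The remaining calls differed between the glycosylase lines. In Neil1, Rad51c stood at 9.82, 7.86 and 6.42 CPM against 11.8, 13.0 and 15.6 CPM (log2 fold change -0.74, SE 0.23, FDR 0.0359), and Exo1, the nuclease of break resection, at 40.3, 32.2 and 25.6 CPM against 58.7, 54.7 and 47.7 CPM (-0.71, SE 0.19, FDR 0.0202). In both genes Neil1 clone #11 was lowest, and both calls held without it. Blm, Chek1 and Xrcc4 were lowered by 0.58, 0.66 and 0.59 on the log2 scale. All 3 calls were lost without Neil1 clone #11, control clone #1 or control clone #4, and those of Blm and Xrcc4 also without Neil1 clone #9. Chek1 lies on chromosome 9, and without Neil1 clone #11 its value was -0.46 (FDR 0.0497). In Neil2, Xrcc3, a recombination gene, stood at 12.7, 13.6 and 14.3 CPM against 18.6, 23.7 and 18.8 CPM (-0.57, SE 0.16, FDR 0.0268), a call lost without control clone #4, and the end-joining ligase gene Lig4 was lowered by 0.53 (FDR 0.074) but not with a replicate block (FDR 0.127) or without any 1 of 5 of the 6 libraries, control clone #7 being the exception. Ercc4, the nuclease gene that serves both nucleotide excision and crosslink repair, was raised, at 41.2, 42.0 and 34.5 CPM against 20.0, 22.0 and 22.6 CPM (0.89, SE 0.14, FDR 0.00248). Its groups were well apart. Neil1 libraries held 26.3, 35.0 and 23.9 CPM of Ercc4, above all controls but not called (0.41).

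**Figure D4:**
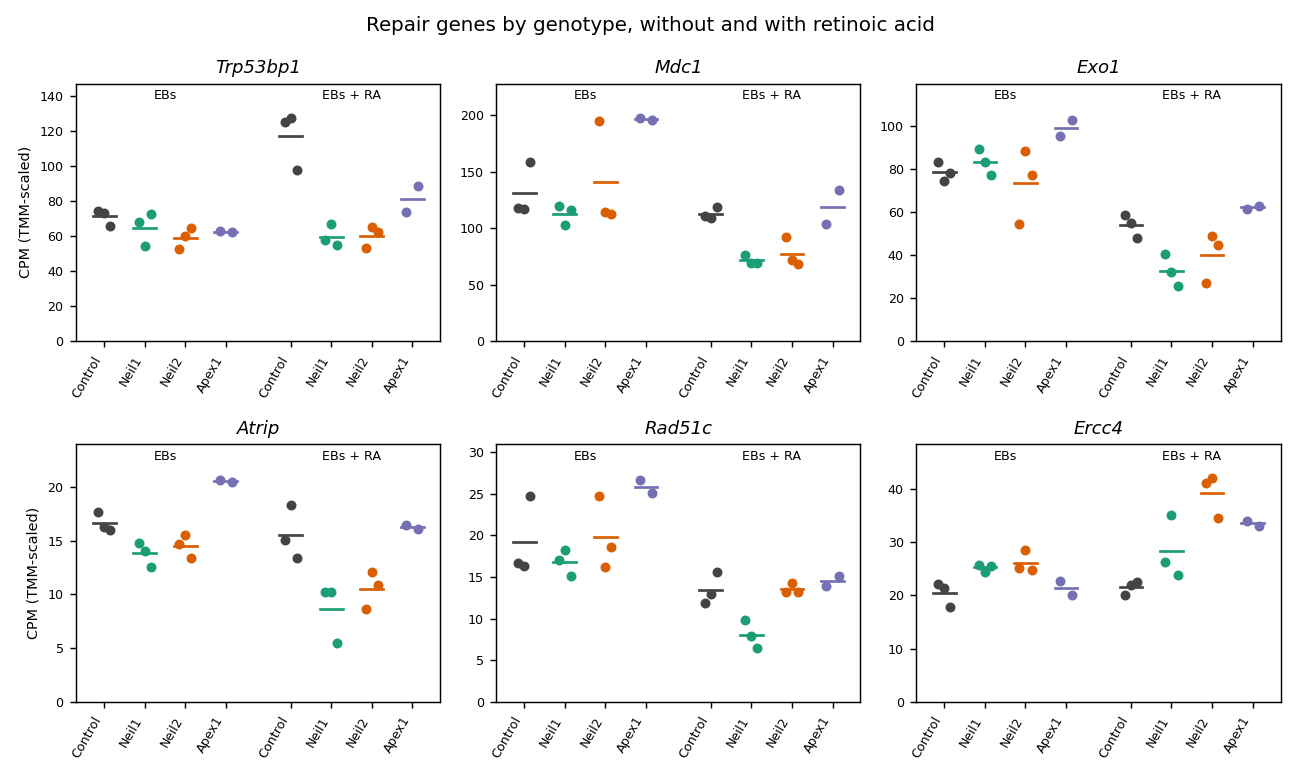
Levels of 6 repair genes in EBs and EBs + RA by genotype. The vertical axis is CPM after TMM scaling, starting at 0, points are libraries in replicate order and lines are group means. Trp53bp1 rose with RA in the controls to 97.9 to 127 CPM but stayed at 52.9 to 66.6 CPM in Neil1 and Neil2, and Ercc4 was highest in Neil2 with RA.

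The Apex1-labelled libraries had 5 genes raised and none lowered in EBs + RA, against 13.9% and 10.9% of all genes. Msh6 stood at 388 and 396 CPM against 211, 200 and 206 CPM (log2 fold change 0.96, SE 0.12, FDR 0.00178) and was the only 1 of the 5 called with the duplicates summed. Fancm stood at 51.6 and 63.5 CPM against 35.8, 40.0 and 22.7 CPM (0.84, SE 0.23, FDR 0.0363), with chromosome 12 higher by medians of 0.22 and 0.28. Ercc4 stood at 34.0 and 33.1 CPM (0.67, SE 0.14, FDR 0.0135), above all controls, as in Neil2. Fanci stood at 23.2 and 28.9 CPM against 17.0, 17.5 and 18.7 CPM (0.58, SE 0.16, FDR 0.0359), and Brca2, which acts on resected DNA in homologous recombination, was higher by 0.52 (SE 0.15, FDR 0.0478). No gene was called in the same direction in Neil1, Neil2 and Apex1 at any stage. Trp53bp1 stood at 73.6 and 88.4 CPM in Apex1, under all controls, with a log2 fold change of -0.50 just inside the fold limit (FDR 0.0604).

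Other cell markers moved in the same libraries. In EBs + RA the neural markers summed to 41.1 to 54.8 CPM in Neil1, 41.6 to 50.3 CPM in Neil2 and 72.4 to 77.4 CPM in Apex1 against 293 to 507 CPM in the controls, with all 8 lowered in each. Pluripotency markers summed to 514 to 1004.2 CPM, 598 to 1835.9 CPM and 1749.4 to 2369.1 CPM against 264 to 340 CPM. The S-phase genes summed to 1622.4 to 2169.1 CPM in Neil1, 1780.5 to 2575.3 CPM in Neil2 and 2805.0 to 2932.3 CPM in Apex1 against 2649.9 to 3469.0 CPM, with 11, 4 and 1 of 18 lowered. Endoderm markers summed to 400 to 864 CPM in Neil1, 134 to 491 CPM in Neil2 and 177 to 202 CPM in Apex1 against 146 to 453 CPM, with 4 of 7 raised in Neil1 and none called in Neil2 or Apex1. Of the mesoderm markers 3 of 6 tested were raised and 2 lowered in Neil1, 4 of 7 raised and 2 lowered in Neil2, and 4 of 7 raised and 1 lowered in Apex1. Of the mitotic genes 5, 2 and 1 of 15 were lowered. The part of these differences in cell type, S-phase and mitotic transcripts in the repair gene levels was not tested. By flow cytometry, which is not analysed here, the study reported that cell cycle profiles of Neil1 and Neil2 lines did not differ significantly from those of controls.

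**Figure D5:**
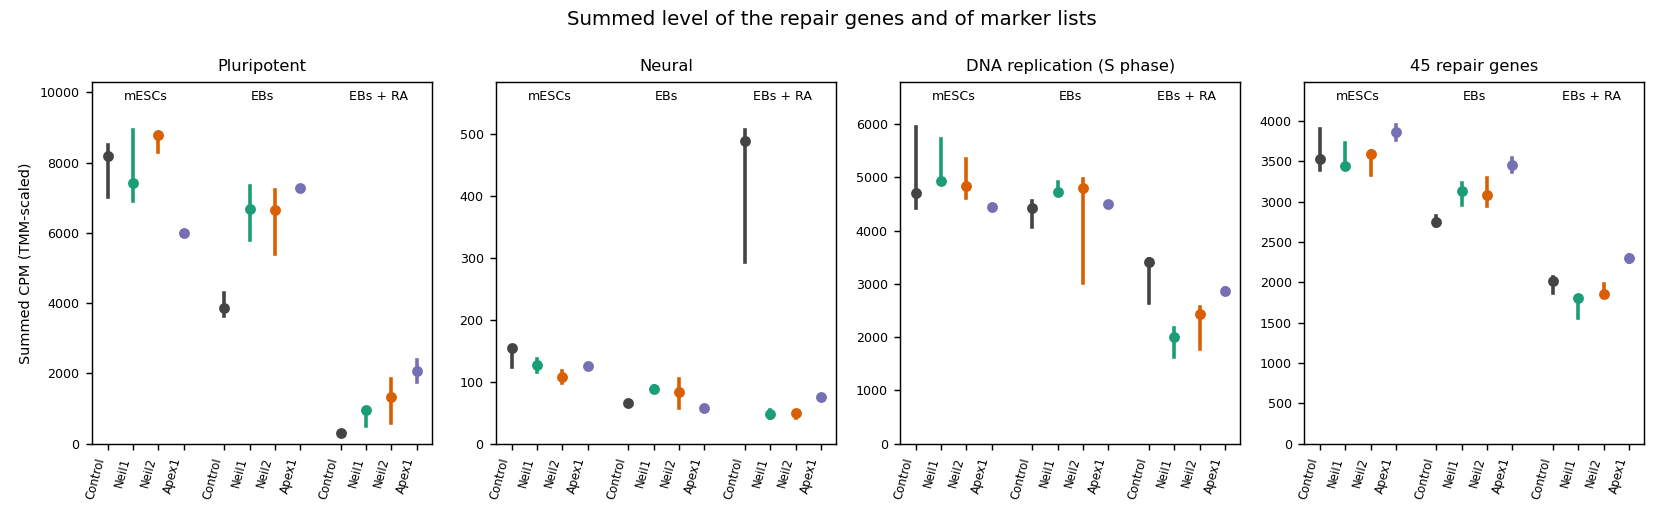
Summed CPM (vertical axes, starting at 0) of 3 marker lists and of the 45 repair genes by stage and genotype. Dots are medians and bars run from the lowest to the highest library. In EBs + RA the neural sum was high only in the controls among the 4 genotypes, the pluripotency sum was higher in all mutants, and the S-phase sum of all Neil1 and Neil2 libraries lay under the lowest control.

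To see whether the RA response itself differed, the interaction of genotype and RA was tested, that is the log2 difference from control in EBs + RA minus that in EBs. In Neil1, 12 of the 45 genes had a negative interaction and none a positive one at FDR below 0.1, against 14.8% and 17.3% of all genes. The median over the 45 was -0.24, against 0.08 over all genes. Xrcc5 went from 125, 135 and 144 CPM in EBs to 62.8, 56.8 and 47.7 CPM in EBs + RA in Neil1, whereas the controls went from 93.8, 91.7 and 95.8 CPM to 70.5, 69.2 and 70.9 CPM. The Neil1 lines thus started above and ended under the controls (interaction -0.83, SE 0.15, FDR 0.00254). Trp53bp1 (-0.81, SE 0.20, FDR 0.0113) rose with RA in the controls and not in Neil1. Exo1 went from 89.2, 83.0 and 77.1 CPM to 40.3, 32.2 and 25.6 CPM in Neil1 against 83.0, 74.4 and 78.0 CPM to 58.7, 54.7 and 47.7 CPM in the controls (-0.77, SE 0.21, FDR 0.0183). These 3 calls held with each line left out in turn.

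The other Neil1 interactions were smaller or less stable. Bard1 went from 54.6, 54.1 and 61.4 CPM to 20.9, 23.0 and 13.9 CPM (controls 47.5, 45.5 and 48.9 to 27.6, 29.0 and 23.0 CPM, interaction -0.70, SE 0.23, FDR 0.0435), and its partner Brca1 from 108, 92.5 and 98.6 to 50.9, 48.8 and 44.1 CPM (controls 89.8, 81.4 and 83.9 to 59.3, 62.0 and 50.2 CPM, -0.46, SE 0.16, FDR 0.0513). Both genes lay above all controls in Neil1 EBs. With RA, Bard1 in Neil1 clone #9 and in control clone #7 was level at 23.0 CPM, so the groups all but touched, and for Brca1 they overlapped. Chek1, the effector kinase of ATR, went from 86.9, 89.6 and 73.8 to 44.9, 44.7 and 27.5 CPM (controls 81.0, 74.3 and 88.1 to 66.9, 67.4 and 51.6 CPM, -0.68, SE 0.25, FDR 0.062), and Blm, the helicase of Bloom syndrome, from 110, 104 and 92.6 to 50.6, 38.7 and 26.4 CPM (controls 89.3 to 97.7 in EBs to 63.5, 57.6 and 52.6 CPM, -0.68, SE 0.25, FDR 0.0663). Neil1 clone #11 had the lowest value with RA in each of the genes of this paragraph so far. Fancl, the ubiquitin ligase of the Fanconi pathway, went from 22.7, 22.7 and 22.4 to 13.4, 13.6 and 9.94 CPM (control means 20.2 ± 1.04 to 17.4 ± 1.58 CPM, SD, n = 3, interaction -0.63, SE 0.21, FDR 0.0433), and Xrcc4 from 7.96, 8.66 and 7.45 to 7.77, 6.86 and 5.53 CPM (controls 7.02, 8.06 and 8.29 to 10.8, 9.99 and 9.71 CPM, -0.61, SE 0.25, FDR 0.0898). Rad54l, a DNA translocase gene of homologous recombination, went from 55.1, 47.7 and 47.6 to 26.9, 27.2 and 25.6 CPM (controls 49.7, 45.5 and 52.4 to 38.3, 36.1 and 30.7 CPM, -0.40, SE 0.17, FDR 0.095). For Xrcc4 the controls rose where Neil1 did not, and for the other genes both fell.

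Xrcc6, which encodes the Ku70 partner of Ku80, and Msh6 had interactions of -0.39 (SE 0.16, FDR 0.0962) and -0.36 (SE 0.12, FDR 0.0503) in Neil1. Xrcc6 went from 86.2, 89.6 and 82.3 to 46.6, 41.7 and 37.8 CPM (controls 74.2, 75.6 and 90.9 to 52.4, 49.0 and 55.5 CPM), and Msh6 from 683, 680 and 666 to 267, 243 and 239 CPM, still above the controls with RA. In the same test 16 of the 18 S-phase genes and 8 of the 15 mitotic genes had negative interactions in Neil1, and the part of this in the repair genes was not tested. Without control clone #1 or without control clone #4 the calls were Exo1, Xrcc5 and Trp53bp1 alone (3). They were 6 without Neil1 clone #9 and 8 without Neil1 clone #11. Over all genes these 4 fits called 2859, 2582, 3796 and 4678. With each line as a replicate block, since each line was split between EBs and EBs + RA, the count was 17. That fit called 6610 of all 16706 genes tested, so the higher count is not a result about these genes. It added Rad51c, Atrip, Pms2, H2afx and Mdc1.

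In Neil2 the interaction was called for Trp53bp1 alone (-0.70, SE 0.18, FDR 0.0293), against 7.98% of all genes negative and 7.42% positive. The call was lost without control clone #1, control clone #4 or Neil2 clone #14. With each line as a block 5 genes were called (Blm, Ercc4, Trp53bp1, H2afx and Mdc1), against 4163 of all 16757 genes tested. In Apex1 the calls were Rad54l (-0.51, SE 0.17, FDR 0.084) and Ercc4 (0.59, SE 0.19, FDR 0.0678), against 6.14% negative and 10.4% positive of all genes. Rad54l went from 51.2 and 51.7 CPM to 24.3 and 26.5 CPM and Ercc4 from 22.8 and 20.0 CPM to 34.0 and 33.1 CPM, while Ercc4 stood near 20 CPM in the controls with and without RA (17.9 to 22.1 and 20.0 to 22.6 CPM). Both Apex1 calls were lost without control clone #1 or control clone #4. Leaving out a duplicate left 1 Apex1 library per stage, too few to test the calls. The values were then -0.46 and -0.57 for Rad54l and 0.67 and 0.52 for Ercc4. With each line as a block 4 genes were called, against 4192 of all 16848 genes tested.

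A second list of 61 measured repair genes gave the wider setting. From mESCs to EBs 3 of these rose and 6 fell, against 18.5% and 20.2% of all genes. With RA none rose and 13 fell, against 23.3% and 20.7%, with a median of -0.23. The share that fell with RA was thus near that of all genes. In EBs + RA, 2 were raised and 11 lowered in Neil1 (median -0.15), against 21.2% and 19.9% of all genes, 1 and 5 in Neil2 (-0.11), against 18.3% and 16.6%, and 5 and 1 in Apex1 (-0.01), against 13.9% and 10.9%. The RA interaction was called for 2 up and 13 down in Neil1, against 17.3% and 14.8%, none in Neil2 and 2 up and 3 down in Apex1, against 10.4% and 6.14%.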

How the data were processed

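Poly(A) RNA libraries (TruSeq RNA v2, unstranded, 51 cycles, HiSeq 2000) of 33 samples were analysed from the deposited counts. Per the labels and the study's methods, the authors aligned reads to NCBIM37 (mm9) with TopHat2 2.0.9 and Bowtie2 2.1.0 and the deposited counts are whole reads per Ensembl gene from HTSeq 0.5.4, not normalised. Reads matching several places (11.4 to 19.9% of a library) or several genes were left out there. Tally rows were excluded here.

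The 45 genes, the other gene lists and the tests were chosen with earlier results of these data known. Coordinates come from GENCODE M1 (NCBIM37), and promoters from RefSeq. Each comparison was fitted over all genes with edgeR 4.0.16 (R 4.3.3, filterByExpr, TMM, robust quasi-likelihood, Benjamini-Hochberg) without a block, and a gene was called at FDR below 0.1 with an absolute log2 fold change above 0.5, or without a fold limit for interactions. SE is the absolute log2 fold change divided by the square root of F. Values in every library are given for the 4 called genes with the largest fold change in each comparison, genes called alike in all 3 mutants of a stage, interaction genes of Neil1 and Neil2, and the targeted genes. DESeq2 1.42.0, RLE scaling, no filter, no fold limit, leaving out each library, a replicate block and summed Apex1 duplicates were alternatives. The code was tested on simulated counts.

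The same control clones were in every stage, and deviations of same-clone libraries correlated between EBs and EBs + RA (r = 0.31, 0.25 and 0.34 over genes) but not between mESCs and EBs (-0.09, 0.13 and -0.14). Same-numbered Neil1 and control libraries in EBs + RA, which share a number only, correlated at 0.18, 0.20 and 0.13. The other Neil1 and Neil2 comparisons had no such shared sign. Neil2 gave -0.19, 0.27 and -0.16 in EBs + RA, and -0.20, 0.46 and 0.41 in mESCs. Neil1 gave 0.20, -0.33 and -0.08 in mESCs, and 0.00, -0.12 and -0.15 in EBs. Only Neil2 EBs were negative throughout, at -0.30, -0.01 and -0.35. Clones are separate lines grown by the same laboratory. Within a stage, p-values of the Neil1 and Neil2 tests measure the spread between them. The Apex1 libraries are technical duplicates of the same clone, so p-values against them do not cover differences between Apex1 clones. The main fits of the control stage comparisons and of the interactions had no block. They therefore treated libraries of the same clone as independent.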

Additional observations from a re-analysis of the deposited data

Results flagged for a closer look

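The retinoic acid response differed from that of the controls, by the interaction test described above, in 15 cases. In Neil1 these were Xrcc5 (-0.83), Trp53bp1 (-0.81), Exo1 (-0.77), Bard1 (-0.70), Chek1 (-0.68), Blm (-0.68), Fancl (-0.63), Xrcc4 (-0.61), Brca1 (-0.46), Rad54l (-0.40), Xrcc6 (-0.39) and Msh6 (-0.36), in Neil2 Trp53bp1 (-0.70), and in Apex1 Rad54l (-0.51) and Ercc4 (0.59), all as log2 differences.

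In another 12 cases every mutant library lay on one side of the controls in mESCs and on the other side at a later stage. This difference between stages was not tested, and the share of all genes that does the same was not counted. The 12 cases therefore cannot be read as a result about these genes. In Neil1, from mESCs to EBs + RA, the log2 difference from control shifted by -0.69 for Fancl and -0.60 for Rnf8, and in Neil2 by -0.58 for Xrcc4. In Apex1, from mESCs to EBs, it shifted by 1.18 for Rad51c, 0.79 for Xrcc6, 0.77 for Xrcc3, 0.60 for Xrcc5 and 0.54 for Chek1. From mESCs to EBs + RA it shifted in Apex1 by 0.82 for Xrcc6, 0.58 for Fanca, 0.36 for Xrcc5 and -0.57 for Rad54l. The Apex1 values come from duplicates of 1 clone. Groups of 2 or 3 libraries were too small for a search for outlying samples.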

How the results depend on the processing

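No result changed direction under the alternatives run, and both stage comparisons of the control clones stayed within 1.5 times their counts under all of them. For Neil1 mESCs (1 gene called) DESeq2 gave 2 and the replicate block 0, against 999 and 0 of all 15569 genes tested. For Neil2 mESCs (0) DESeq2, no filter and the replicate block each gave 1, against 811, 479 and 634 called over all genes. For Apex1 mESCs (4) the replicate block gave 12, against 6140 of all 16240 genes tested. In Apex1 EBs + RA (5) the block gave 8, against 5602 of 16239, and no fold limit 8. Summed duplicates left 1 Apex1 library, so a lack of calls there says little about these genes. In these 2 Apex1 comparisons no Apex1 library carries the replicate number of control clone #7, so the block takes that clone out of the contrast. It therefore called the same genes as leaving out control clone #7, and its other blocks pair lines that share only a number. Without the fold limit Neil1 EBs gave 7, Neil2 EBs 2, Apex1 EBs 23 and Neil1 EBs + RA 14. For the Neil2 interaction (1) DESeq2 gave 2 and the replicate block 5, against 3095 and 4163 of all 16757 genes tested. For the Apex1 interaction (2) the block gave 4, against 4192 of 16848.

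Leaving out 1 library gave 0 to 3 in Neil1 mESCs, 0 to 12 in Apex1 mESCs, 1 to 3 in Neil1 EBs, 0 to 3 in Neil2 EBs, 3 to 6 in Apex1 EBs, 4 to 12 in Neil1 EBs + RA, 3 to 7 in Neil2 EBs + RA, 2 to 8 in Apex1 EBs + RA, 10 to 14 from mESCs to EBs, 20 to 24 with RA, and 3 to 15, 0 to 3 and 0 to 10 for the interactions of Neil1, Neil2 and Apex1. In Neil2 mESCs it stayed 0. Apex1 EBs gave 3 without control clone #4 or the second duplicate, Neil2 EBs + RA 3 without control clone #4 or Neil2 clone #14, and Apex1 EBs + RA 2 without the first duplicate. The highest count came without control clone #7 in both mESC comparisons that moved, in the EBs + RA comparisons and in the interactions. Calls over all genes moved as well, for instance from 4594 to 7199 in Neil1 EBs + RA and from 2582 to 5946 in the Neil1 interaction. The cause was not tested. At every stage same-numbered mutant and control libraries share only a number.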
